A study of Caenorhabditis elegans with 12 samples.

Results

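The comparison described here is that of *gsr-1a trxr-2* double mutants with *gsr-1a* single mutants of *Caenorhabditis elegans*. It takes in 6 of the 12 RNA-seq libraries of the study, 3 per strain, chosen by the strain given in each title. The double mutants carried *gsr-1(syb266)* and *trxr-2(tm2047)*, both on chromosome III, and the *gsr-1a* animals carried *gsr-1(syb266)* alone. Both strains therefore share the *gsr-1a* lesion and differ by the *trxr-2* allele, so the comparison asks what the loss of *trxr-2* changes in animals that already lack mitochondrial glutathione reductase. The *trxr-2(tm2047)* single mutants and wild type, also with 3 libraries each, entered the fit and are given for the genes that are described. *gsr-1(syb266)* is a CRISPR-Cas9 deletion of the exon that encodes the mitochondrial targeting sequence, and it leaves the cytosolic isoform GSR-1b in place, while *trxr-2(tm2047)* is a null allele. RNA came from whole young adults synchronized by bleaching, so tissues were not separated, and fewer cells of a type cannot be told apart from less RNA per cell. The study describes its RNA-seq as independent experiments with biological replicates, while the labels number the libraries of a strain without naming a culture.

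Mitochondria keep their thiols reduced through a pair of NADPH-driven systems. In the thioredoxin system the reductase TRXR-2 reduces thioredoxin TRX-2, which in turn reduces peroxiredoxin PRDX-3, a peroxidase of hydrogen peroxide. In the glutathione system the isoform GSR-1a reduces oxidized glutathione, which serves glutaredoxins. When mitochondria are stressed, *C. elegans* can induce mitochondrial chaperones through the transcription factor ATFS-1 (the mitochondrial unfolded protein response, UPRmt), and a separate branch through the kinases DLK-1 and PMK-3. Detoxification and pathogen defence genes are also known to rise in many such conditions.

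Total counts ranged from 13145074 to 18942204 over the 6 libraries. Levels are CPM, counts relative to the library size after TMM scaling, and a change is a log2 fold change of double mutants over *gsr-1a* with its standard error (SE). Genes whose adjusted p in edgeR's quasi-likelihood test was under 0.05 are named called, and they rose or fell. Some libraries stood apart. On the first principal component, which held 63.0% of the variance over the 12 libraries, double mutant replicates 1 and 3 lay at -43.5 and -42.7, but replicate 2 lay at -19.1, between them and the *gsr-1a* libraries at -0.633, -1.11 and 2.42. *gsr-1a* replicate 1 held 157296 CPM in cytosolic ribosomal protein genes, against 97821 and 99826 CPM in the other *gsr-1a* libraries. Outside the 6 libraries, wild-type replicate 1 and *trxr-2* replicate 1 held 3002 and 16944 CPM in yolk protein genes, below the others of their strains (43273 to 76439 CPM), and they enter the spread that the fit shares between strains.

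The targeted gene followed the labels. *trxr-2* (chromosome III, 8913769 to 8916450 in WBcel235) held 2 counts in all over the double mutant libraries and 583 over those of *gsr-1a*. Per library this was 0.0658, 0.0541 and 0 CPM in double mutants, against 11.2, 11.6 and 12.6 CPM in *gsr-1a*. The ratio of double mutants to *gsr-1a* was 0.00344, with an exact 95% counting interval of 0.000416 to 0.0125, which covers counting error only. *gsr-1* was counted over the whole gene, so its counts do not resolve the missing exon. It stood at 258.4 ± 6.98 CPM in double mutants and 262.3 ± 9.79 CPM in *gsr-1a* (SD, n = 3 each; log2 fold change -0.02, SE 0.13, adjusted p = 0.96 from edgeR).

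Of 15004 genes tested, 475 rose and 61 fell in the double mutants, which is 3.17% and 0.407% of the genes tested and 3.57% in both directions together (edgeR, Benjamini-Hochberg over all genes). At an unadjusted p under 0.05 in the same test, 2041 of the 15004 were higher and 1060 lower. Counts within the lists below are to be read beside these shares. A change over 2-fold was seen for 393 of the genes that rose and for 34 of those that fell. Libraries of both strains did not overlap for 471 of the 475 genes that rose and for all 61 that fell, which the choice of these genes by the same libraries favours. Over all genes tested this held for 17.8% in the higher and 15% in the lower direction. In 336 of the 475 genes that rose, replicate 2 was the double mutant library nearest to the *gsr-1a* mean. Over all genes tested the share was smaller, at 6870 of 15004. Without that library the counts were 1039 higher and 100 lower, and 452 and 52 of the genes called with all libraries were among them. Without *gsr-1a* replicate 1 they were 324 and 97. Leaving out double mutant replicate 1 or 3 gave 168 or 171 higher and 12 or 16 lower, and leaving out *gsr-1a* replicate 2 or 3 gave 188 or 141 higher and 21 or 18 lower. A core of 131 genes that rose and 8 that fell kept the call whichever of the 6 libraries was left out. With the number 1 libraries of all 4 strains left out there were 1203 higher and 1018 lower, and DESeq2 called 1110 and 295. In the plot of change against level, most of the called genes lie above zero over the whole range of levels.

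**Figure D1:**
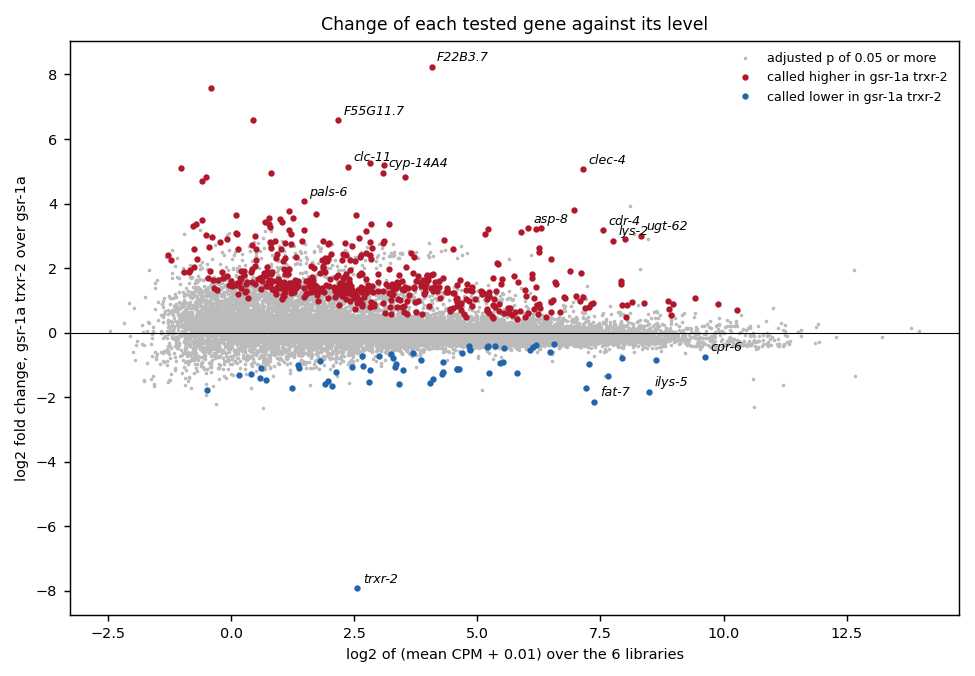
The log2 fold change of gsr-1a trxr-2 over gsr-1a for each of the 15004 genes tested is plotted against the log2 of its mean CPM over the 6 libraries (0.01 added). The 475 genes called higher (red) lie above 0 at all levels, with F22B3.7 at 8.24, and the 61 called lower (blue) reach -2.13 in fat-7 and -7.93 in the deleted trxr-2.

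Among the genes of the thioredoxin and glutathione systems, *trxr-2* itself was the 1 called, of 18 tested. Their median log2 fold change was 0.01, the same as over all genes tested (0.01). The other reductase, TRXR-1 of the cytosol, was at 160 ± 12.7 CPM in double mutants and 159 ± 4.21 CPM in *gsr-1a* (SD, n = 3 each), a log2 fold change of 0.01 (SE 0.11). Of the substrates, *trx-2* came closest to a call. It had 88.0, 70.5 and 79.3 CPM in double mutants, against 58.6, 47.1 and 43.7 CPM in *gsr-1a*. Every double mutant library was above every *gsr-1a* library, with a log2 fold change of 0.67 (SE 0.19) and an adjusted p of 0.067 that missed the threshold. *trx-2* was called in 11 of 20 alternative settings, among them DESeq2 (adjusted p = 0.011) and the fit to only the 6 libraries (adjusted p = 0.027 from edgeR), and the adjusted p ranged from 0.0011 to 0.25 over all 20. Peroxiredoxin *prdx-3* (0.07, SE 0.18), its cytosolic relative *prdx-2* (0.04, SE 0.19), the mitochondrial glutaredoxin *glrx-5* (0.36, SE 0.22) and *nnt-1*, which makes mitochondrial NADPH (0.12, SE 0.59), were not called. None of 14 superoxide dismutase, catalase and glutathione peroxidase genes was called (4 higher at an unadjusted p under 0.05, and 2 by DESeq2), and of 23 genes of glutathione synthesis and sulfur amino acids only *cbs-2*, for a cystathionine beta-synthase, was (log2 fold change 1.31, SE 0.30, adjusted p = 0.038 from edgeR). The *cbs-2* call was lost with any of 5 of the 6 libraries left out, at adjusted p up to 0.17.

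The chaperones that report the UPRmt were not called in this comparison. *hsp-6*, the mitochondrial HSP70, had 1092, 1015 and 1188 CPM in double mutants, against 933, 679 and 816 CPM in *gsr-1a*. The groups did not overlap, but the log2 fold change of 0.44 (SE 0.36) was not past the threshold, at an adjusted p of 0.53. *hsp-6* was called in 1 of 20 alternative settings, without the number 1 libraries of all strains (log2 fold change 0.56, adjusted p = 0.02 from edgeR), and its adjusted p reached 0.76 in the others. *hsp-60*, the mitochondrial chaperonin, was at 588 ± 60.1 CPM in double mutants and 593 ± 168 CPM in *gsr-1a* (SD, n = 3 each). *atfs-1* was at 128 ± 13.03 CPM in double mutants and 110.1 ± 4.64 CPM in *gsr-1a* (SD, n = 3 each; log2 fold change 0.21, SE 0.13). Of 20 genes of mitochondrial chaperones, proteases and UPRmt regulators 1 rose, a share of 5.0% against 3.17% of the 15004 genes. Without the number 1 libraries 6 were called higher and 1 lower. The gene that rose with all libraries was *dnj-10*, a mitochondrial DnaJ co-chaperone. It had 95.7, 95.9 and 102 CPM in double mutants against 69.9, 68.8 and 70.02 CPM in *gsr-1a*. Its libraries separated by little but with a small spread, at a log2 fold change of 0.49 (SE 0.08, adjusted p = 0.0084 from edgeR). The *dnj-10* call was lost without double mutant replicate 3 or without *gsr-1a* replicate 2 or 3, at adjusted p up to 0.064.

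*mff-2* and *drp-1*, genes of mitochondrial division, rose. Of 17 genes of fission, fusion and mitophagy 3 were called, all higher, while the median of the list was -0.07. *mff-2*, whose mammalian counterpart MFF recruits the fission GTPase to mitochondria, had 102, 75.4 and 84.1 CPM in double mutants against 44.4, 35.9 and 38.4 CPM in *gsr-1a*. The libraries did not overlap, with a log2 fold change of 1.14 (SE 0.18) and an adjusted p of 0.0042, and it kept its call with each of the 6 libraries left out. *drp-1*, the fission GTPase itself, had 355, 309 and 353 CPM in double mutants against 185, 182 and 192 CPM in *gsr-1a* (log2 fold change 0.86, SE 0.15, adjusted p = 0.0081 from edgeR). *sqst-1*, the p62 autophagy receptor, was at 150 ± 33.3 CPM in double mutants and 70.8 ± 13.2 CPM in *gsr-1a* (SD, n = 3 each; adjusted p = 0.047 from edgeR). *drp-1* lost its call without double mutant replicate 1 or 3, at adjusted p up to 0.067, and *sqst-1* with any of 5 of the 6 libraries left out, at up to 0.19. *fis-1*, another fission factor, had 2.21 ± 0.656 CPM in double mutants and 0.939 ± 0.0323 CPM in *gsr-1a* (SD, n = 3 each) without a call.

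In the branch of DLK-1 and PMK-3, 2 of 7 genes rose and the list had a median of 0.29. *tbb-6*, a beta-tubulin gene known as a target of PMK-3 in mitochondrial stress, had 28.9, 24.6 and 24.1 CPM in double mutants, against 6.97, 8.86 and 6.82 CPM in *gsr-1a*. All double mutant libraries were over 2-fold above all *gsr-1a* libraries, with a log2 fold change of 1.77 (SE 0.19, adjusted p = 0.00028 from edgeR) that held with each library left out. *dlk-1* itself was at 62.1 ± 4.05 CPM in double mutants and 42.1 ± 3.69 CPM in *gsr-1a* (SD, n = 3 each; log2 fold change 0.56, adjusted p = 0.037 from edgeR), a call that was lost with any 1 of the 6 libraries left out, at adjusted p up to 0.16.

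Nuclear genes of oxidative phosphorylation hardly moved as a list, with a median of 0.04. Of 53 genes 1 was called, higher, a share of 1.89% against 3.17% of the 15004 genes. That gene was *cox-10*, which acts in the pathway to heme A for cytochrome c oxidase, at 17.6 ± 0.927 CPM in double mutants and 11.8 ± 1.11 CPM in *gsr-1a* (SD, n = 3 each; log2 fold change 0.58, SE 0.12). The *cox-10* call was lost with any of 4 libraries left out, at adjusted p up to 0.14. None of 70 mitochondrial ribosomal protein genes was called (edgeR; 1 higher and 2 lower at an unadjusted p under 0.05, 0 calls with each library left out), nor any of 15 import genes (1 higher and 0 lower) or 31 TCA and glyoxylate cycle genes (0 higher and 1 lower), and DESeq2 called 0 in each of these lists. Without the number 1 libraries, 10 TCA, 4 import, 12 oxidative phosphorylation and 1 mitochondrial ribosomal protein genes were called higher, while a block for the replicate number gave 1 import and 1 mitochondrial ribosomal protein gene. The mitochondrial genome was read by position, since the name table has few of its genes. Of its 12 protein-coding genes tested, none was called and all had a positive change, from 0.27 to 0.68. Their summed levels were 4198, 4108 and 4061 CPM in double mutants and 4047, 2601 and 2103 CPM in *gsr-1a*, so *gsr-1a* replicate 1 was close to the double mutants. WBGene00014454, a ribosomal RNA gene of the mitochondrial genome (898 to 1593), behaved otherwise, with 65.9, 57.3 and 66.4 CPM in double mutants against 8.79, 6.90 and 7.24 CPM in *gsr-1a*. It was called (log2 fold change 3.05, SE 0.46, adjusted p = 0.0036 from edgeR), and it was at 26.5, 21.9 and 6.41 CPM in *trxr-2* and at 15.9, 6.21 and 7.75 CPM in wild type. The other ribosomal RNA gene, WBGene00014472, had 18.6, 15.4 and 16.7 CPM in double mutants against 7.05, 4.88 and 5.48 CPM in *gsr-1a*. The strains did not overlap in it, but it was not called (log2 fold change 1.55, SE 0.52, adjusted p = 0.11 from edgeR). In *trxr-2* it was at 27.9, 14.7 and 4.16 CPM. The libraries were selected for polyA RNA, and whether the share of ribosomal RNA that passed the selection differed was not tested.

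Several of the largest rises were in genes that were close to silent in *gsr-1a*, though *clec-4* was not. *F22B3.7* (WBGene00009038, chromosome IV, 11417581 to 11421796) had 33.9, 32.8 and 33.9 CPM in double mutants, against 0.261, 0 and 0.106 CPM in *gsr-1a*. Double mutant libraries were nearly equal and far above all others, with a log2 fold change of 8.24 (SE 0.50, adjusted p = 4.0e-06 from edgeR), and *trxr-2* and wild type each held a level above 0 in 1 library alone (0.0752 and 0.0725 CPM). *clec-4*, a C-type lectin gene (WBGene00012583, chromosome II), had 288, 289 and 247 CPM in double mutants against 6.62, 8.44 and 9.26 CPM in *gsr-1a*. It was 33.6-fold higher, at a log2 fold change of 5.07 (SE 0.22, adjusted p = 5.9e-07 from edgeR), while *trxr-2* (5.86 to 10.4 CPM) and wild type (8.05 to 10.4 CPM) stayed in the range of *gsr-1a*. *cyp-14A4*, a cytochrome P450 gene, had 18.2, 15.5 and 15.8 CPM in double mutants against 0.348, 0.690 and 0.479 CPM in *gsr-1a* (log2 fold change 4.96, SE 0.25, adjusted p = 1.0e-06 from edgeR). These 3 genes separated with a small spread and kept their calls with each library left out, as the plot of 12 genes by library shows.

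The others of the 12 largest rises were *F55G11.7* (log2 fold change 6.59), *C04C3.14* (5.26), *clec-17* (5.18), *clc-11* (5.14), *ZK177.9* (4.96), *B0205.14* (4.82), *pals-6* (4.08), *cyp-33C8* (3.79) and *C54F6.18*. In *C54F6.18*, 128 counts over the double mutant libraries stood against 1 count over those of *gsr-1a*, a ratio of 128 with an exact 95% counting interval of 22.6 to 5112. Its call was lost without double mutant replicate 1 or 3 or *gsr-1a* replicate 2 or 3, at adjusted p up to 0.11, and the other genes of the 12 kept theirs. *clc-11*, of the claudin-like family, was the most even, with 10.3, 9.96 and 9.64 CPM in double mutants against 0.609, 0.159 and 0.160 CPM in *gsr-1a*. *C04C3.14* spread more, with 21.4, 5.79 and 14.2 CPM in double mutants against 0.522, 0.265 and 0.319 CPM in *gsr-1a*. In *C04C3.14*, *clec-17*, *ZK177.9*, *B0205.14* and *cyp-33C8* double mutant replicate 2 was the lowest of its strain, but still above every *gsr-1a* library.

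**Figure D2:**
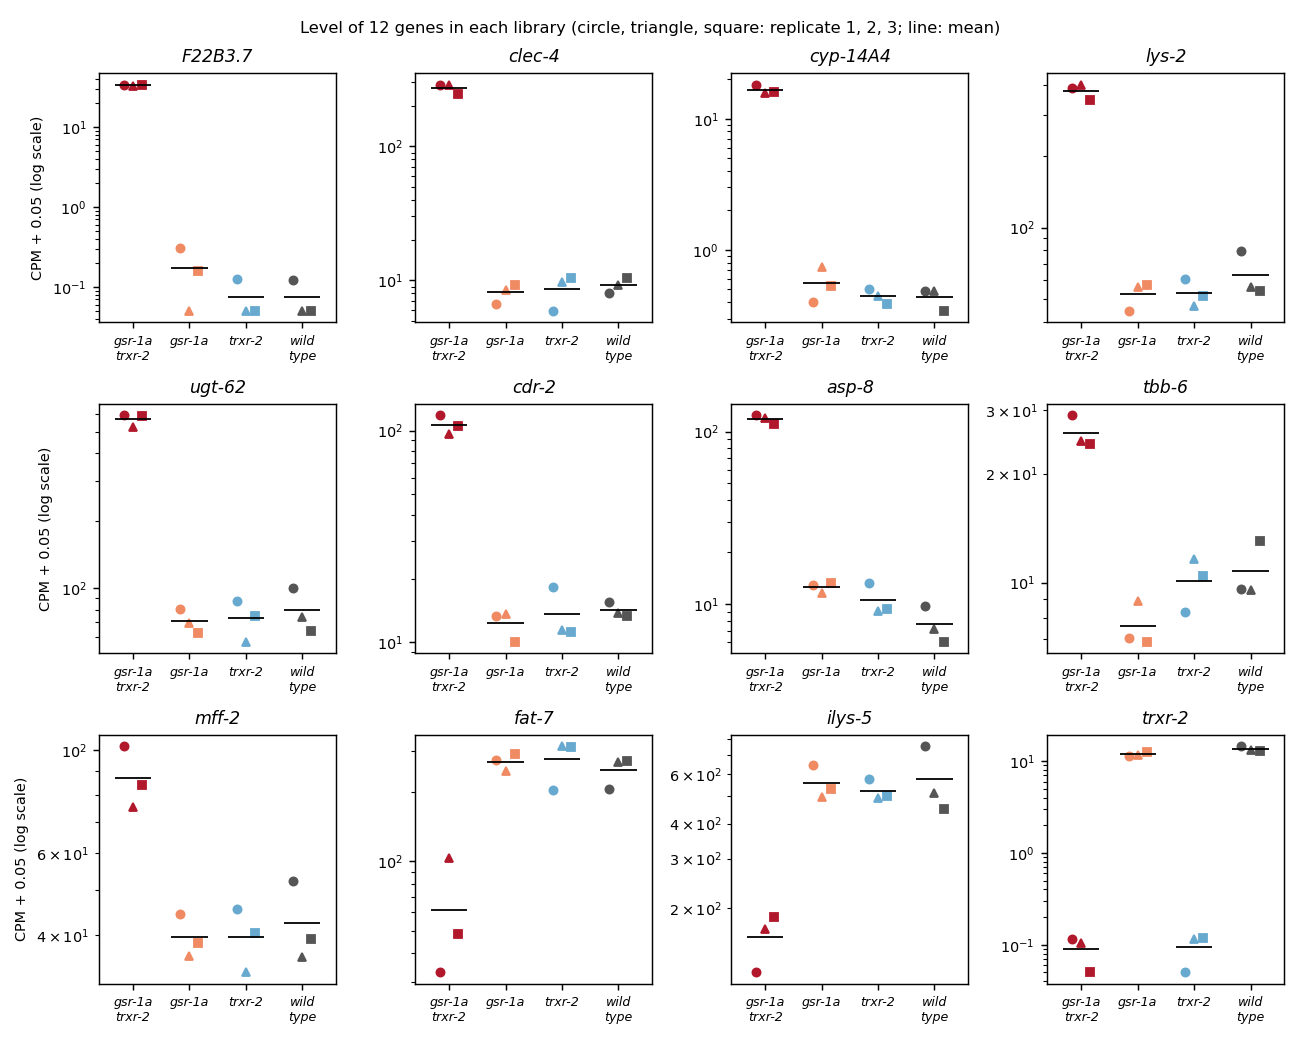
The CPM (0.05 added, log axis) of 12 genes is plotted for each library of gsr-1a trxr-2, gsr-1a, trxr-2 and wild type, with replicates 1, 2 and 3 as circle, triangle and square and the mean as a line. In the 9 genes that rose, the 3 double mutant libraries lie above the 9 others (clec-4 at 247 to 289 against 5.86 to 10.4 CPM), and fat-7 and ilys-5 lie below them.

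Genes of each step of detoxification were among those that rose. Cytochrome P450 enzymes oxidize foreign compounds, UDP-glucuronosyltransferases and glutathione S-transferases conjugate them, and ABC transporters export them. Of 60 cytochrome P450 genes 8 rose and 4 fell, and the median was 0.20. Beside *cyp-14A4* and *cyp-33C8*, *cyp-14A1* was at 24.4 ± 5.06 CPM in double mutants and 7.10 ± 0.855 CPM in *gsr-1a*, and *cyp-13A12* at 13.1 ± 1.18 CPM in double mutants and 1.30 ± 0.408 CPM in *gsr-1a* (SD, n = 3 each). With 1 of the 6 libraries left out, 5 to 9 of these genes were called higher and 1 to 4 lower, with 5 higher and 1 lower without double mutant replicate 1 or 3 or *gsr-1a* replicate 3. Of 56 UDP-glucuronosyltransferase genes 8 rose and 1 fell, with a median of 0.09. *ugt-62* was the most abundant of the members described, with 593, 526 and 585 CPM in double mutants against 80.3, 69.3 and 62.8 CPM in *gsr-1a* (log2 fold change 3.01, SE 0.20, adjusted p = 7.0e-06 from edgeR). *ugt-19* had 72.0, 55.9 and 74.5 CPM in double mutants against 7.49, 7.38 and 6.82 CPM in *gsr-1a* (log2 fold change 3.22, SE 0.18, adjusted p = 3.2e-06 from edgeR). Neither gene overlapped between the strains, and *ugt-50* (1.71, SE 0.13) and *ugt-21* (2.03, SE 0.18) rose by less.

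Of 40 glutathione S-transferase genes 3 rose and none fell (0 lower at an unadjusted p under 0.05, and 0 by DESeq2), with a median of 0.32. *gst-38* had 9.01, 4.33 and 6.10 CPM in double mutants against 1.48, 1.01 and 1.44 CPM in *gsr-1a* (log2 fold change 2.31, SE 0.38). *gst-4*, often used as a reporter of oxidative stress, was at 28.7 ± 4.32 CPM in double mutants and 16.999 ± 1.93 CPM in *gsr-1a* (SD, n = 3 each; log2 fold change 0.76, adjusted p = 0.02 from edgeR), while wild type held 21.8 to 25.7 CPM. The calls of *gst-4* and *gst-6* (1.45, SE 0.31) were lost without double mutant replicate 1 or 3 or *gsr-1a* replicate 2 or 3, at adjusted p up to 0.14. Without *gsr-1a* replicate 1, 5 of these genes were called higher. Of 37 ABC transporters 6 rose and 1 fell. *pgp-1*, a P-glycoprotein of the intestine, was at 20.2 ± 3.28 CPM in double mutants and 6.62 ± 0.827 CPM in *gsr-1a* (SD, n = 3 each) and kept its call throughout, whereas *pgp-9*, with 175, 62.1 and 158 CPM in double mutants against 27.7, 20.2 and 16.7 CPM in *gsr-1a*, had its lowest double mutant value in replicate 2 and was called in 1 of the 6 fits with a library left out (adjusted p up to 0.12). Without *gsr-1a* replicate 3, 1 ABC transporter was called higher, and without replicate 1 or 3 of the double mutants or *gsr-1a* replicate 2, 2 were.

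The cadmium-responsive genes *cdr-2* and *cdr-4* rose together. *cdr-4* had 335, 355 and 327 CPM in double mutants against 30.6, 46.1 and 36.5 CPM in *gsr-1a*, and *cdr-2* had 118, 96.4 and 105 CPM in double mutants against 13.2, 13.5 and 10.01 CPM in *gsr-1a*. Neither gene overlapped between the strains. The log2 fold changes were 3.17 (SE 0.21) for *cdr-4* and 3.12 (SE 0.20) for *cdr-2*, both at an adjusted p of 5.1e-06 from edgeR. The metallothionein *mtl-2*, in the same list of 7, fell to 3.56 ± 0.400 CPM in double mutants, against 10.3 ± 1.14 CPM in *gsr-1a* (SD, n = 3 each; log2 fold change -1.53, adjusted p = 0.04 from edgeR), and lost that call with any 1 of the 6 libraries left out (adjusted p up to 0.15). Of 177 nuclear hormone receptor genes, whose products regulate many of the enzymes above, 11 rose and 1 fell. These shares were 6.21% and 0.565%, against 3.17% and 0.407% of the 15004 genes. With 1 of the 6 libraries left out, 6 to 17 were called higher. There were 17 without double mutant replicate 2, 6 without *gsr-1a* replicate 2 or 3 and 7 without double mutant replicate 3. *nhr-112* was at 3.20 ± 0.383 CPM in double mutants and 0.593 ± 0.056 CPM in *gsr-1a*, and *nhr-115* at 9.85 ± 0.597 CPM in double mutants and 2.79 ± 0.247 CPM in *gsr-1a*. *nhr-8*, a receptor known in xenobiotic resistance, was at 25.7 ± 3.07 CPM in double mutants and 12.2 ± 1.94 CPM in *gsr-1a* (SD, n = 3 each). Of these, *nhr-8* lost its call without *gsr-1a* replicate 2 (adjusted p = 0.055 from edgeR). Of 28 stress and immunity transcription factors 2 rose, *nhr-8* and the bZIP gene *zip-11* (log2 fold change 0.81, SE 0.16), of which *zip-11* kept its call in 1 of the 6 fits with a library left out (adjusted p up to 0.09). Among 17 cytosolic heat shock genes only the small heat shock gene *hsp-17* was called, with 84.4, 93.4 and 71.1 CPM in double mutants against 22.4, 22.7 and 28.1 CPM in *gsr-1a* (log2 fold change 1.76, SE 0.17, adjusted p = 0.00014 from edgeR). None of 20 endoplasmic reticulum chaperone and UPR genes was called (edgeR; 1 lower at an unadjusted p under 0.05, 0 by DESeq2).

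Defence genes changed in both directions. C-type lectins are secreted or membrane proteins with a sugar-binding domain, many of them made in the intestine. Of 134 tested, 18 rose and 4 fell, with a median of 0.42. *clec-66* had 134, 179 and 113 CPM in double mutants against 15.5, 14.4 and 14.7 CPM in *gsr-1a* (log2 fold change 3.26, SE 0.21, adjusted p = 5.1e-06 from edgeR), and *clec-65* (1.92, SE 0.17) and *clec-265* (2.13, SE 0.21) also rose. *clec-48* fell to 31.6 ± 3.697 CPM in double mutants, against 59.9 ± 7.10 CPM in *gsr-1a* (SD, n = 3 each), and *clec-218* to 8.27 ± 1.92 CPM in double mutants, against 24.4 ± 5.41 CPM in *gsr-1a*. The *clec-218* call was lost with any of 4 libraries left out (adjusted p up to 0.10). Without double mutant replicate 2, 47 of these genes were called higher and 6 lower, and the median was 0.38. With the other libraries left out, 10 to 13 were called higher.

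Among lysozymes, enzymes that break bacterial cell walls, 2 of 11 rose and 2 fell. *lys-2* had 386, 401 and 345 CPM in double mutants against 44.3, 56.1 and 57.03 CPM in *gsr-1a*, and *lys-1* had 364, 411 and 345 CPM in double mutants against 213, 191 and 170 CPM in *gsr-1a*. In the opposite direction, *ilys-5* of the invertebrate type had 118, 168 and 185 CPM in double mutants against 646, 495 and 530 CPM in *gsr-1a*. The strains did not overlap in any of these genes, and the log2 fold changes were 2.84 (SE 0.18) for *lys-2*, 0.97 (SE 0.15) for *lys-1* and -1.83 (SE 0.22) for *ilys-5*, each kept with every library left out. *lys-4* was at 68.5 ± 20.02 CPM in double mutants and 225.1 ± 16.5 CPM in *gsr-1a* (SD, n = 3 each; log2 fold change -1.72, adjusted p = 0.04 from edgeR) and kept its call in 1 of those 6 fits (adjusted p up to 0.15). All 16 *pals* genes tested, a family linked to the intracellular pathogen response, had a positive change, with a median of 0.66, and 3 were called. *pals-6* had 6.84, 3.84 and 5.11 CPM in double mutants against 0.261, 0.212 and 0.426 CPM in *gsr-1a*, and *pals-14* was at 1.33 ± 0.103 CPM in double mutants and 0.164 ± 0.159 CPM in *gsr-1a* (SD, n = 3 each), the *pals-14* call being lost in 3 of the 6 fits (adjusted p up to 0.071). Of 20 CUB-like, *dod* and *irg* genes 3 rose, namely *dod-19* (log2 fold change 1.11, SE 0.14), *hpo-6* (1.08, SE 0.13) and the infection response gene *irg-1* (1.85, SE 0.37), with the *irg-1* call lost in 4 of the 6 fits (adjusted p up to 0.12).

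Proteases of the lysosome and gut lumen had the largest share of called genes among the lists with more than 10 genes, with 6 of 18 higher and 3 lower. *asp-8*, an aspartic protease gene, had 124, 120 and 110 CPM in double mutants against 12.9, 11.5 and 13.3 CPM in *gsr-1a*. It rose evenly in all libraries, by 3.23 on the log2 scale (SE 0.19, adjusted p = 3.4e-06 from edgeR). The cathepsin B-like genes *cpr-3* (log2 fold change 1.505, SE 0.20), *cpr-8* (1.58, SE 0.19) and *cpr-5* (0.90, SE 0.15) rose, and *cpr-6* was lower, at 587 ± 40.9 CPM in double mutants and 982 ± 61.5 CPM in *gsr-1a* (SD, n = 3 each; log2 fold change -0.74, SE 0.14). *cpr-6* lost its call in 3 of the 6 fits (adjusted p up to 0.10), and of the list 4 to 5 genes were called higher and 0 to 3 lower over those fits. Genes of heme handling rose within the iron list, where 4 of 14 were called, all higher. *hrg-7*, which encodes a secreted aspartic protease-like protein that signals heme status between tissues, had 281, 138 and 225 CPM in double mutants against 71.5, 55.9 and 52.2 CPM in *gsr-1a*, with replicate 2 again the lowest double mutant library but above all *gsr-1a* libraries. *hrg-2* (log2 fold change 2.22, SE 0.25) and *hrg-9* (1.55, SE 0.20) also rose, and the heme transporter gene *hrg-1* (1.22, SE 0.30, adjusted p = 0.049 from edgeR) kept its call in 1 of the 6 fits (adjusted p up to 0.19).

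Of 17 intestine markers 3 rose and 2 fell. *ges-1*, the gut esterase, was at 37.8 ± 2.13 CPM in double mutants and 19.2 ± 1.07 CPM in *gsr-1a*, and *vha-6*, a proton pump subunit of the intestinal lumen, at 620.3 ± 20.7 CPM in double mutants and 314.8 ± 30.995 CPM in *gsr-1a* (SD, n = 3 each). The third was *pgp-1*, and the markers that fell were *mtl-2* and *cpr-6*. Summed over the markers the level was 5003, 5144 and 5307 CPM in double mutants and 4551, 3786 and 3691 CPM in *gsr-1a*, so every double mutant library was above the *gsr-1a* libraries by less than the change of the genes above. *vha-6* lost its call without double mutant replicate 3 or *gsr-1a* replicate 3 (adjusted p up to 0.061). Markers of muscle (24 tested), neurons (24) and hypodermis (17) held no called gene, with medians of 0.05, 0.28 and 0.05. At an unadjusted p under 0.05, 5 neuron markers were higher and 1 hypodermis marker was lower, and DESeq2 called 1 neuron marker. The part of a change in tissue proportions in the results was not tested.

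The genes that fell were fewer and changed less. The largest fall after *trxr-2* was that of *fat-7*, a stearoyl-CoA desaturase, with 32.96, 103.6 and 48.2 CPM in double mutants against 275, 245 and 292 CPM in *gsr-1a*. Replicate 2 was the highest double mutant library and still below every *gsr-1a* library, at a log2 fold change of -2.13 (SE 0.35, adjusted p = 0.0061 from edgeR). *fat-7* lost its call without double mutant replicate 3 (adjusted p = 0.055 from edgeR). Another desaturase gene, *fat-2*, moved the other way and was at 1238 ± 157 CPM in double mutants and 668 ± 12.4 CPM in *gsr-1a* (SD, n = 3 each), a call lost in 4 of the 6 fits (adjusted p up to 0.11). In propionate breakdown *hach-1*, for a 3-hydroxyisobutyryl-CoA hydrolase of the propionate shunt, was the 1 called of 14, with 252, 299 and 299 CPM in double mutants against 532, 493 and 495 CPM in *gsr-1a* (log2 fold change -0.84, SE 0.15, adjusted p = 0.011 from edgeR). It lost that call without double mutant replicate 1 (adjusted p = 0.063 from edgeR).

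The others of the 12 largest falls after *fat-7*, *ilys-5*, *lys-4*, *clec-218* and *mtl-2* were *F54E4.2* (log2 fold change -1.70), the acyltransferase-like *oac-20* (-1.64), *cyp-35A5* (-1.603), the thaumatin-like *thn-2* (-1.59), *K09C4.5* (-1.48) and *cyp-13A4* (-1.48). *cyp-35A5* had 2.24, 1.68 and 1.64 CPM in double mutants against 6.53, 5.09 and 5.32 CPM in *gsr-1a* and kept its call throughout. *thn-2* had 6.12, 4.06 and 5.77 CPM in double mutants against 16.6, 15.3 and 15.97 CPM in *gsr-1a*. *oac-20* and *thn-2* lost the call in 1 of the 6 fits each (adjusted p of 0.051 and 0.06), *K09C4.5* in 3 and *F54E4.2* and *cyp-13A4* in 4 (adjusted p up to 0.17). The acid phosphatase gene *pho-11*, at 22.2 ± 5.28 CPM in double mutants and 53.0 ± 7.57 CPM in *gsr-1a* (SD, n = 3 each), fell by 1.26 on the log2 scale and kept its call in all. *ech-1.1*, of beta-oxidation, was the 1 gene called of 32 in the list of beta-oxidation and ascaroside enzymes (log2 fold change -1.21, SE 0.26). It lost that call in 4 of the 6 fits (adjusted p up to 0.18).

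**Figure D3:**
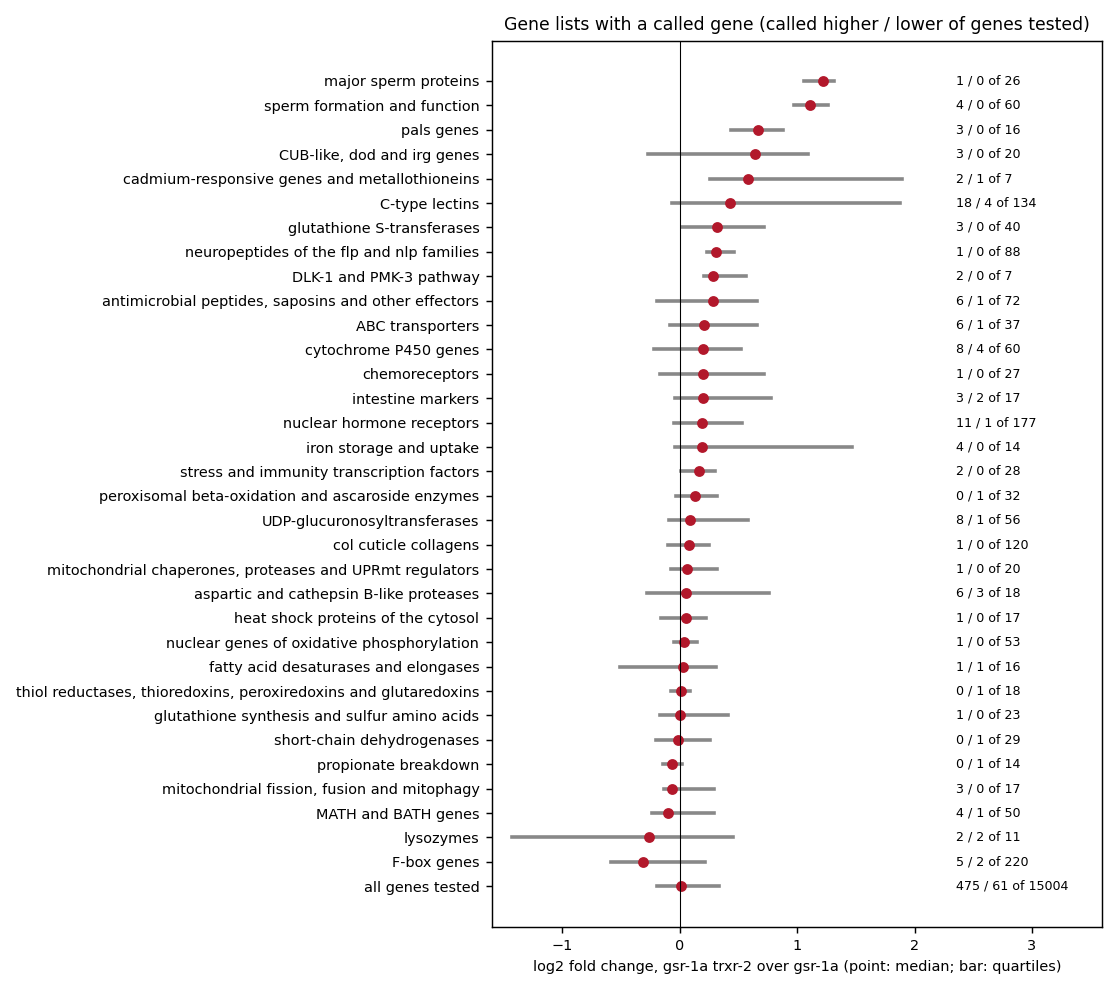
For each gene list with a called gene, the median log2 fold change of gsr-1a trxr-2 over gsr-1a (point) and its quartiles (bar) are plotted with the numbers called higher and lower of those tested. Sperm lists have the highest medians (1.22 and 1.11) with 1 of 26 and 4 of 60 called, while the protease list has 6 higher and 3 lower of 18 around a median of 0.05, against 0.01 over all genes tested.

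Sperm genes had the highest medians of any list but few calls. All 26 major sperm protein genes had a positive change, with a median of 1.22 and 26 at an unadjusted p under 0.05, yet 1 was called, and of 60 genes of sperm formation and function 4 were called, with a median of 1.11. *msp-56* had 30.7, 15.4 and 30.7 CPM in double mutants against 13.8, 8.92 and 8.89 CPM in *gsr-1a* (log2 fold change 1.28, SE 0.32, adjusted p = 0.049 from edgeR). The sum over the family was 1484, 636 and 1330 CPM in double mutants and 732, 450 and 374 CPM in *gsr-1a*. As in *msp-56*, replicate 2 was the lowest double mutant library and replicate 1 the highest of *gsr-1a*. In the sum, however, double mutant replicate 2 lay below *gsr-1a* replicate 1, while in *msp-56* it lay above. *ssq-2* had 79.3, 36.5 and 82.7 CPM in double mutants against 31.4, 19.5 and 19.3 CPM in *gsr-1a*, and *spe-18* and *spe-47* followed the same pattern of libraries. Without double mutant replicate 2, 21 of the 26 and 25 of the 60 genes were called, with medians of 1.504 and 1.34. Without *gsr-1a* replicate 1, 3 and 2 were called, and without any 1 of the other 4 libraries none was. The sums were 159 to 390 CPM in *trxr-2*, which reached into the *gsr-1a* range, and 202 to 284 CPM in wild type, below every library of both strains. *msp-76* was at 60.7 ± 24.6 CPM in double mutants and 29.4 ± 13.4 CPM in *gsr-1a* (SD, n = 3 each) with no call, against 8.39 to 24.0 CPM in *trxr-2* and 0 to 0.292 CPM in wild type. Reads that fit several places were not counted, so members of this family with near-identical sequence are uncertain.

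Other germline lists had negative medians and no call by edgeR. The medians were -0.15 for 33 oocyte and maternal genes, -0.45 for 41 early embryo genes and -0.17 for 35 genes of meiosis and P granules, with 0, 13 and 6 lower at an unadjusted p under 0.05 and 0, 2 and 1 lower by DESeq2. Without *gsr-1a* replicate 1, 6 early embryo genes were called lower, and without the number 1 libraries of all strains 12 were, with 2 oocyte and maternal, 3 meiosis and P granule and 8 proteasome genes. The 33 proteasome subunit genes had a median of -0.27 and the 81 cytosolic ribosomal protein genes -0.33, with no call in either by edgeR (8 and 0 lower at an unadjusted p under 0.05, and 3 and 0 by DESeq2). Without *gsr-1a* replicate 1, the library with the highest ribosomal protein sum, the ribosomal median was -0.09. Summed yolk protein levels were 36502, 34535 and 40968 CPM in double mutants and 48979, 41795 and 50437 CPM in *gsr-1a*, lower in each double mutant library. The median change of the 6 yolk genes was -1.39, and *vit-3* was at -2.30 (SE 0.74, adjusted p = 0.097 from edgeR). None was called in the fit to all 12 libraries (edgeR; 1 lower at an unadjusted p under 0.05, and 1 by DESeq2), but 4 were called lower in the fit to only the 6 libraries and 4 without the number 1 libraries. Some yolk genes are close in sequence, so their separate counts are uncertain.

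**Figure D4:**
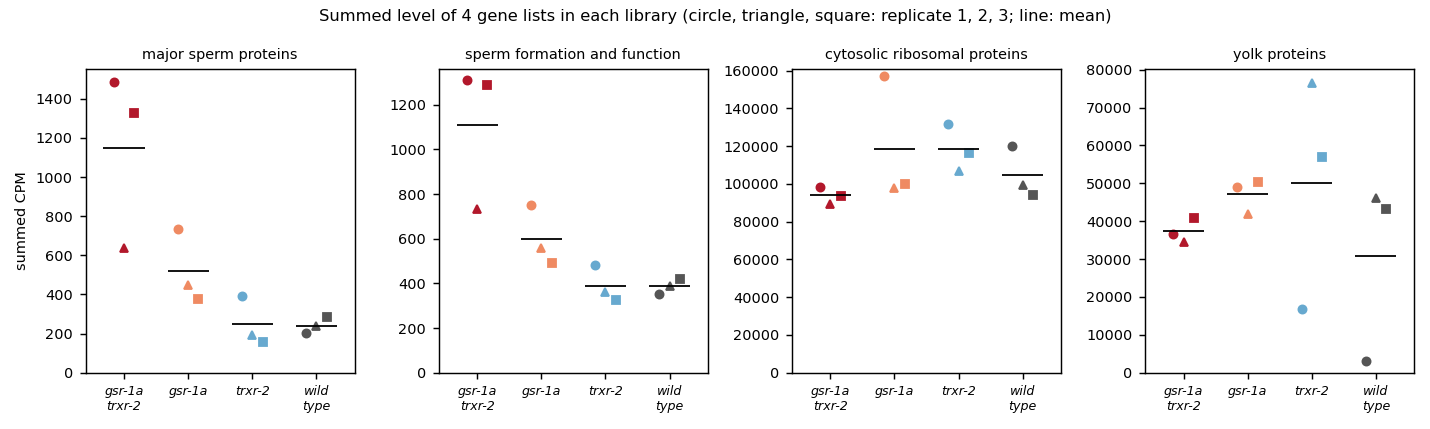
Summed CPM of 4 gene lists is plotted for each library of gsr-1a trxr-2, gsr-1a, trxr-2 and wild type, with replicates 1, 2 and 3 as circle, triangle and square and the mean as a line. For major sperm proteins, double mutant replicate 2 (636 CPM) lies below gsr-1a replicate 1 (732 CPM), and the ribosomal sum is highest in gsr-1a replicate 1 (157296 CPM).

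The direction of the cuticle lists depended on single libraries. Of 120 *col* collagens 1 was called, *col-95*, with 491, 194 and 411 CPM in double mutants against 110, 90.2 and 159 CPM in *gsr-1a* (log2 fold change 1.61, SE 0.32, adjusted p = 0.019 from edgeR). Its lowest double mutant library was replicate 2, and the call was lost in 4 of the 6 fits with a library left out (adjusted p up to 0.095). None of 21 furrow, body shape and blister collagens was called (0 at an unadjusted p under 0.05 and 0 by DESeq2). The median of the *col* list was 0.08, but 0.60 without *gsr-1a* replicate 1, -0.21 without *gsr-1a* replicate 3 and -0.21 without double mutant replicate 2, and that of the furrow list was 0.21, but 0.62, -0.07 and -0.16 without the same libraries. Without the number 1 libraries of all strains the medians were 0.79 and 0.97, with 17 *col* collagens called higher and 1 lower and 2 furrow collagens called lower. *sqt-1* was at 17.9 ± 10.4 CPM in double mutants and 15.6 ± 10.1 CPM in *gsr-1a*, and *lon-3* at 7.02 ± 4.69 CPM in double mutants and 5.004 ± 3.26 CPM in *gsr-1a* (SD, n = 3 each), with a spread larger than the difference. Among ubiquitin ligase adaptor families, 5 of 220 F-box genes rose, a share of 2.27% that was below the 3.17% of the 15004 genes. In that family 2 fell (0.909%, against 0.407%), and the median was -0.31. Of 50 MATH and BATH genes 4 rose (8.0%) and 1 fell (2.0%). Without *gsr-1a* replicate 1, 12 F-box genes were called lower (36 without the number 1 libraries of all strains), and without double mutant replicate 1 or 3 or *gsr-1a* replicate 3, 1 MATH or BATH gene was called higher. Of 88 neuropeptide genes 1 was called and of 22 insulin-like peptide genes none was, although 80 of 88 and 19 of 22 had a positive change.

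The effect of losing *trxr-2* was then set beside its effect in animals with intact GSR-1a, the *trxr-2* single mutants against wild type, which share no library with the 6 above. There 10 of the 15004 genes were called (0.0666%), 5 higher (0.0333%) and 5 lower (0.0333%), among the lower ones *trxr-2*. Leaving out *trxr-2*, the 475 genes that rose had a median change of 1.48 on the log2 scale in double mutants over *gsr-1a* and of -0.07 in *trxr-2* over wild type, where 201 were positive and 1 was called (*Y38F2AL.12*, of 475). The 60 genes that fell had a median of -1.07 in double mutants over *gsr-1a* and of -0.19 in *trxr-2* over wild type, and 47 of 60 were also negative in *trxr-2* over wild type, with 0 called by edgeR. Over all 15003 genes tested other than *trxr-2*, the median in *trxr-2* over wild type was -0.04, with 6511 positive and 8490 negative. The change was larger in size in double mutants over *gsr-1a* for 472 of the 475 and for all 60, which their choice by that change favours. With the number 1 libraries of all strains left out, 519 genes were called between *trxr-2* and wild type, which is 3.43% of those tested. Of the genes that rose above 5 of 474 were called there, 2 higher and 3 lower, and of the genes that fell 3 of 60, all 3 lower.

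**Figure D5:**
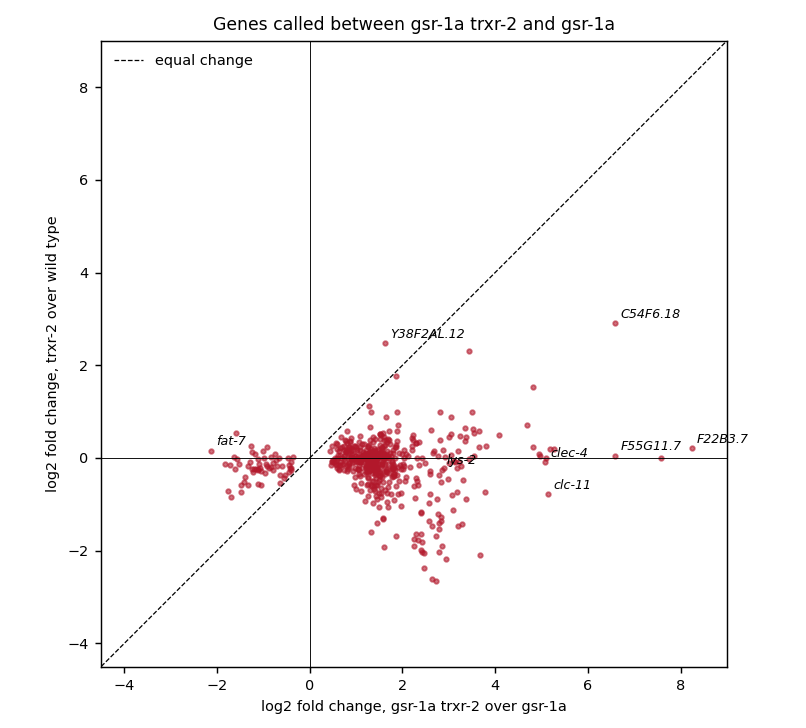
For the 535 genes called between gsr-1a trxr-2 and gsr-1a (trxr-2 left out), the log2 fold change of trxr-2 over wild type (vertical) is plotted against that of gsr-1a trxr-2 over gsr-1a (horizontal), with a dashed line at equal change. Most points lie along the horizontal axis, with medians of -0.07 and -0.19 on the vertical axis for genes that rose and fell, against -0.04 over all genes tested.

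The difference of both effects was tested as an interaction. It was called with a positive sign for 109 genes and a negative sign for 6 of the 15004 tested (0.726% and 0.04%, or 0.766% together). Of the genes that rose in double mutants over *gsr-1a* 103 were among the positive ones, and of those that fell 4 were among the negative ones. The interaction contains the change of double mutants over *gsr-1a* itself, so the choice of genes by that change favours this overlap. The 6 largest positive interactions among genes also called between double mutants and *gsr-1a* were those of *F55G11.7* (6.54), *clc-11* (5.92), *clec-4* (5.16), *C04C3.14* (5.07), *clec-17* (4.99) and *cyp-14A4* (4.92). Over 18 alternative settings *clc-11*, *clec-4* and *cyp-14A4* kept this call in each, *C04C3.14* in 14, *clec-17* in 9 and *F55G11.7* in 8. *clec-4*, for example, changed by 5.07 on the log2 scale in double mutants over *gsr-1a* and by -0.09 in *trxr-2* over wild type, an interaction of 5.16 (SE 0.29, adjusted p = 1.0e-05 from edgeR). The negative ones among genes called between double mutants and *gsr-1a* were *thn-2* (-2.12), *ilys-5* (-1.69), *pho-11* (-1.38) and *clec-48* (-1.15), of which *thn-2* kept the call in 9 of the 18 settings, *ilys-5* in 10, *pho-11* in 11 and *clec-48* in each. The sperm gene *msp-76*, not called between double mutants and *gsr-1a*, had an interaction of -5.63 that was kept in 17. With the replicate number as a block, 129 positive and 13 negative interactions were called, and those of *F55G11.7* and *hrg-2* were lost. *F22B3.7* was not called in the interaction (adjusted p = 0.28 from edgeR). *trxr-2* and wild type held 1 count of it each over their 3 libraries. For *fat-7* (adjusted p = 0.055), *drp-1* (0.14), *dnj-10* (0.074), *trx-2* (0.27) and *hsp-6* (0.95) the interaction did not pass the threshold, which does not show that the effect was equal in both backgrounds.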

How the data were processed

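For each gene, the authors deposited raw counts of read pairs in 12 polyA RNA-seq libraries, 3 for each of 4 strains. Per the processing notes and file headers these came from FastQC, HISAT2, SAMtools and featureCounts 2.0.0 (WBcel235, Ensembl release 97), by strand and over whole gene spans with introns. Pairs with several positions or overlapping several genes were not counted, which can lower near-identical genes. Symbols were matched for 93.8% of 46904 identifiers. Strains and replicate numbers follow the labels. Names of the deposited files carry what look like dates shared by the 4 libraries of a number, which the labels do not explain. Deviations of same-numbered libraries correlated at 0.37 to 0.64 between *trxr-2* and wild type, but at -0.01 to 0.05 between double mutants and *gsr-1a*. Between *trxr-2* and wild type only number 1 stood apart, as numbers 2 and 3 correlated about as well with each other (0.51 and 0.39).

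Counts were scaled by TMM, filtered by edgeR's rule and fitted in edgeR 4.0.16 (R 4.3.3) with 1 mean per strain over all 12 libraries (8 residual degrees of freedom). The quasi-likelihood test was used, p-values were adjusted by Benjamini-Hochberg over 15004 genes, and the threshold was 0.05. The SE is the size of the log2 fold change divided by the square root of F. Counting intervals cover counting error only. The fit was tested on simulated data.

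The members, the 56 gene lists, the tests and the alternatives were chosen with earlier results of these data known. Lists are described by counts and medians without a test. The naming rule took the mutated genes, the 12 largest rises and falls among called genes with at least 1 CPM and no overlap, the 4 smallest p-values of each list, the redox genes, the 6 largest interactions in each direction among genes called in both tests, and genes that the study names. The text gives a subset of these, picked after the values were seen, as were *Y38F2AL.12* and the mitochondrial genome (by position). Alternatives were DESeq2 1.42.0, RLE scaling, other filters and thresholds, the replicate number as a block, and fewer libraries.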

Additional observations from a re-analysis of the deposited data

Results flagged for a closer look

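The interaction marks genes in which the loss of *trxr-2* had an effect in animals without mitochondrial glutathione reductase (double mutants over *gsr-1a*) that differed from its effect in animals with it (*trxr-2* over wild type). Of the genes described, 39 passed the threshold in edgeR's test of this difference, and 21 of them did so under each of 18 alternative settings. Many of the genes described were chosen by their change in double mutants over *gsr-1a*. That change is part of the difference, so the choice favours such calls. Values are differences of log2 fold changes, double mutants minus *gsr-1a* less *trxr-2* minus wild type. In detoxification they were 4.92 for *cyp-14A4*, 3.54 for *cyp-33C8*, 2.99 for *cyp-13A12* and 1.98 for *cyp-14A1*. They were 3.31 for *ugt-19*, 3.12 for *ugt-62*, 2.03 for *ugt-50*, 1.86 for *ugt-21* and 1.60 for *pgp-1*. The cadmium-responsive genes gave 3.18 for *cdr-2* and 3.39 for *cdr-4*. The nuclear hormone receptor genes gave 1.43 for *nhr-8*, 2.42 for *nhr-112* and 2.18 for *nhr-115*. The small heat shock gene *hsp-17* gave 2.01. Of these, *nhr-112* kept the call in 16 of the 18 settings, *cyp-13A12* in 14, *nhr-8* in 10 and *pgp-1* in 9.

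In defence genes the difference was 5.16 for *clec-4*, 4.99 for *clec-17*, 3.43 for *clec-66*, 1.81 for *clec-65*, 2.09 for *clec-265*, 3.101 for *lys-2*, 3.59 for *pals-6* and 1.05 for *dod-19*, and it was negative for *ilys-5* (-1.69), *thn-2* (-2.12) and *clec-48* (-1.15). Proteases and heme genes gave 2.75 for *asp-8*, 1.65 for *cpr-8*, 1.95 for *hrg-2* and 1.84 for *hrg-7*, and the acid phosphatase gene *pho-11* gave -1.38. Mitochondrial division and the PMK-3 branch gave 1.24 for *mff-2* and 1.86 for *tbb-6*. Among genes of less known function or of the claudin-like family, it was 6.54 for *F55G11.7*, 5.92 for *clc-11*, 5.07 for *C04C3.14*, 4.86 for *ZK177.9* and 4.60 for *B0205.14*. Of the genes in this paragraph, *cpr-8* kept the call in 16 of the 18 settings, *hrg-7* in 14 and *mff-2* in 10. *pals-6* kept it in 9, and *dod-19*, *hrg-2* and *ZK177.9* in 8. The counts for *clec-17*, *F55G11.7*, *C04C3.14*, *ilys-5*, *thn-2*, *pho-11* and *msp-76* are given with the interaction above. *msp-76* differed in the other direction (-5.63), with *trxr-2* at 8.39 to 24.0 CPM and wild type at 0 to 0.292 CPM. No group had more than 3 libraries, so single outlying libraries were not tested for.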

How the results depend on the processing

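Double mutants over *gsr-1a* gave 475 genes higher and 61 lower. Without all 4 libraries of number 1 there were 1203 and 1018, with DESeq2 1110 and 295, and at an adjusted p under 0.01 there were 153 and 13. In the lower direction there were 160 with only the 6 libraries of both strains and 34 with a fold over 2. Leaving out 1 of the 12 libraries gave 141 to 1039 higher and 12 to 157 lower, the ends being *gsr-1a* replicate 3 and double mutant replicate 2, and double mutant replicate 1 and wild-type replicate 1. The cause was not tested. The interaction gave 109 and 6, but 294 and 114 without number 1, 361 and 34 with DESeq2, and 46 to 286 and 2 to 13 with 1 library left out. *trxr-2* against wild type gave 10, but 519 without number 1 and 20 with DESeq2. The other settings stayed within 1.5 times of these counts, apart from the block below. DESeq2 kept 470 of the 475 and all 61.

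The replicate numbers did not pair double mutant and *gsr-1a* libraries, as deviations of same-numbered libraries correlated at -0.01, 0.05 and 0.05, and not every library correlated best with its own number. Same-numbered *trxr-2* and wild-type libraries correlated at 0.64, 0.48 and 0.37. However, *trxr-2* replicate 2 correlated at 0.51 with wild-type replicate 3, and *trxr-2* replicate 3 at 0.39 with wild-type replicate 2. There the numbers set number 1 apart but did not pair numbers 2 and 3. The comparison of *trxr-2* with wild type gave 9 calls under the block. With the replicate number as a block there were 454 higher and 100 lower, with 375 and 56 of the calls shared, and 360 and 101 with only the 6 libraries. The interaction, which rests on both pairs of strains, then gave 129 and 13, without *F55G11.7* and *hrg-2*.

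Changes near 0 switched sign, none of them called. *hsp-60* was 0.23 without number 1 and 0.022 under the replicate block with 6 libraries, and with 1 library left out lay between -0.20 and 0.21. *nnt-1* was -0.17 without number 1. With 1 library left out *nnt-1* ranged from -0.16 to 0.39, *prdx-2* from -0.084 to 0.20, *prdx-3* from -0.0013 to 0.18, *trxr-1* from -0.048 to 0.075, *lon-3* from -0.18 to 0.87 and *sqt-1* from -0.38 to 0.68. Under every setting run, 53 of 99 called genes that the naming rule gives kept their call. On simulated counts of this comparison 28 of 50 rises by 2-fold and 25 of 50 falls to 0.5 of the level were called, so a gene without a call is not shown to be unchanged.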
